A study of Rattus norvegicus with 18 samples.

Results

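The levels of 10 genes whose products modify, fold, trim or crosslink collagen were compared between livers of control rats, rats with steatohepatitis (NASH) and rats with NASH and cirrhosis (NASH-CH). They were chosen by name: the lysyl oxidases Lox, Loxl1, Loxl2 and Loxl4, the lysyl hydroxylases Plod1 and Plod2, the prolyl 4-hydroxylase subunits P4ha1 and P4ha2, the collagen chaperone Serpinh1 and the procollagen processing enhancer Pcolce. All 10 were among the 32623 genes of the tables and all 10 passed the filter on low counts, which left 12904 genes. The groups each held 6 male Wistar rats. Control rats received standard chow and normal water for 12 weeks. NASH rats inhaled CCl4 and drank phenobarbital for 6 weeks, then ate a high-fat, high-cholesterol diet for 4 weeks. NASH-CH rats inhaled CCl4 with phenobarbital for 8 weeks and then for a further 16 weeks together with that diet. Group thus went with agent, diet and length of protocol (12, 10 and 24 weeks), and these cannot be told apart.

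Fibrillar collagen chains are hydroxylated on proline and lysine in the endoplasmic reticulum. Hydroxyproline lets the triple helix hold at body temperature, and telopeptide hydroxylysine, the product of Plod2, directs the later crosslinks towards a stable type. Serpinh1 (HSP47) escorts the helix, Pcolce speeds removal of the C-terminal propeptide, and lysyl oxidases, which need copper, oxidise lysines so that fibrils crosslink outside the cell. In injured liver, activated stellate cells and other myofibroblasts are the main source of fibrillar collagen.

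Plod2 and Pcolce were higher in NASH-CH than in control livers, by 3.38-fold and 1.52-fold. Lox and Loxl1 had fitted folds of 2.68 and 2.40 that did not pass the threshold, Loxl2 and Loxl4 had 0.877 and 0.656, also not passing, and Serpinh1, the 2 prolyl 4-hydroxylases and Plod1 lay within 1.26-fold of control. No member passed in NASH against control or in NASH-CH against NASH. Levels are CPM values, read counts relative to library size after TMM scaling, differences are log2 fold changes from limma-voom with Benjamini-Hochberg adjustment over the 12904 genes, and the threshold is an adjusted p of 0.05. For each group of 6 rats, 3 levels are given in the order lowest, median and highest.

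The plot of the 10 genes by rat shows these levels.

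**Figure D1:**
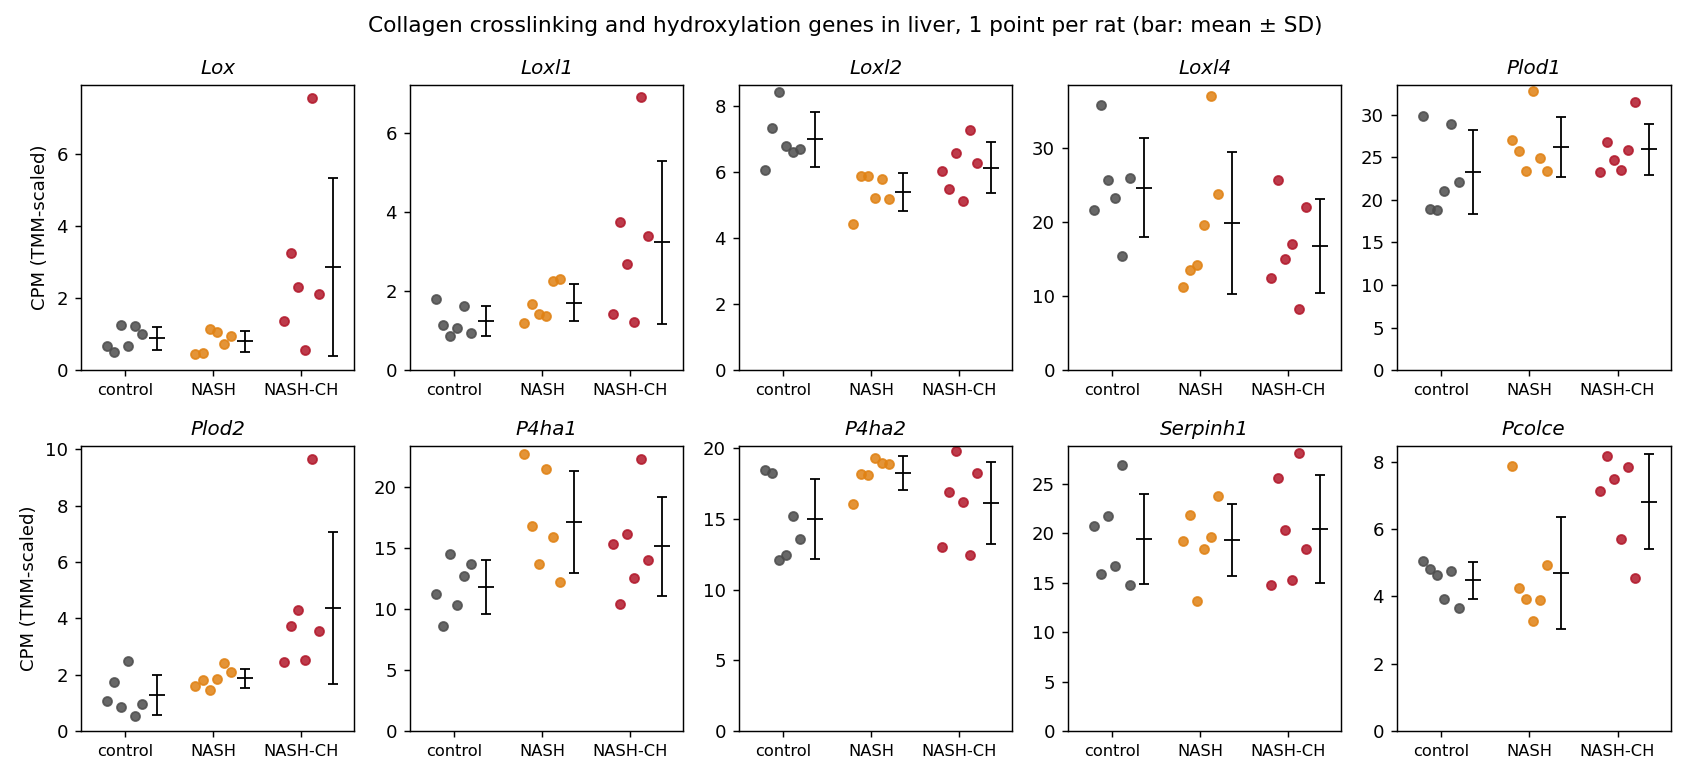
Level of each gene in CPM (vertical axis, linear, from 0) in the 6 control, 6 NASH and 6 NASH-CH rats, with 1 point per rat and a bar for the mean ± SD. Plod2 in NASH-CH starts at 2.44 CPM, above every NASH rat, and its highest rat reaches 9.68 CPM.

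Control libraries totalled 19498534 to 27174015 counts, NASH libraries 20827770 to 29491947 and NASH-CH libraries 44680344 to 60117822, so depth also went with the NASH-CH group. With NASH-CH counts thinned to the control mean, both NASH-CH calls remained. NASH-CH rat 5 stood apart: it was the highest of its group in 6 of the 10 genes and the lowest in 2. Values without it stand beside many, but not all, of the results that it moved. In bulk tissue, fewer cells of a type and less RNA per cell cannot be told apart.

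The Plod2 to Plod1 ratio passed its test in NASH-CH against each other group, but not in NASH against control. The P4ha2 to P4ha1 ratio did not pass its test. The promoters of both enzyme pairs compared within rats are therefore shown first. Each is the 250 bases before the transcription start from RefSeq (build GRCr8, a later assembly than the Rnor_6.0 of the counts). Capitals mark ACGTG, the core of the hypoxia response element, or TTCNNGAA, the heat shock element core, on either strand.
Plod2, chr8:101964068-101964317, plus strand: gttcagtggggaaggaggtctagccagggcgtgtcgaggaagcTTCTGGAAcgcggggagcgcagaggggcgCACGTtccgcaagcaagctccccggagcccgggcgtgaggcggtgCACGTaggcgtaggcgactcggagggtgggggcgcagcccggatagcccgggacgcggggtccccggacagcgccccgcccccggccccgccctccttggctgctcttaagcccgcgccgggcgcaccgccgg
Plod1, chr5:163650738-163650987, minus strand: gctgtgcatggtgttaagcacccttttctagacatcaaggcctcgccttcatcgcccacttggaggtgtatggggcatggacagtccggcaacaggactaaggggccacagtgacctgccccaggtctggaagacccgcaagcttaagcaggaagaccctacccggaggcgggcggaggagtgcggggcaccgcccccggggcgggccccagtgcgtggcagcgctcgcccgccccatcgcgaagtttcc
P4ha2, chr10:38743644-38743893, plus strand: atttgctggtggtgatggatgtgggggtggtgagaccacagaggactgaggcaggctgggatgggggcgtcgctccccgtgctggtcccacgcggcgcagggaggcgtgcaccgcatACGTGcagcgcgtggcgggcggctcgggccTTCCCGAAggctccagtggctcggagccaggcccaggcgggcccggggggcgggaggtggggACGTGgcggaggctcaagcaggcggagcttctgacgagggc
P4ha1, chr20:27844796-27845045, plus strand: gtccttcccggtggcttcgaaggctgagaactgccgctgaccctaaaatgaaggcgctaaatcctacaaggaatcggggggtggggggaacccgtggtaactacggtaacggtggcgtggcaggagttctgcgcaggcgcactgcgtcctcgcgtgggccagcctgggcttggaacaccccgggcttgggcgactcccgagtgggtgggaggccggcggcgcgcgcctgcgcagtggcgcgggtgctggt

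Of the 10 genes, 8 had an entry in the RefSeq promoter table. ACGTG occurred in 2 of the 8, Plod2 (first bases 178 and 133 before the start) and P4ha2 (133 and 41), against 16.6% of 33469 promoters of the same length. TTCNNGAA occurred in 3 of the 8, Plod2 (207 before the start), P4ha2 (103) and Serpinh1 (35), against 7.5%. CAGAC, the SMAD box, occurred in 3 of the 8, Loxl1, Loxl4 and Plod1, against 42.9%. No matches overlapped each other. The 3 motifs were picked after the values were known, and a match is a description of sequence only.

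Among the lysyl hydroxylases, Plod2 (ENSRNOG00000030183), which hydroxylates telopeptide lysines, measured 0.545 CPM in the lowest control rat, 1.01 at the median and 2.48 in the highest. NASH rats ran from 1.47 through 1.82 to 2.40 CPM, and NASH-CH rats from 2.44 through 3.64 to 9.68 CPM. Every NASH-CH rat was above every NASH rat, while 5 of 6 were above every control rat, since NASH-CH rat 1 lay just below control rat 4. The log2 fold change in NASH-CH against control was 1.76 (SE 0.42, 95% interval 0.87 to 2.64, limma-voom adjusted p = 0.00881). Without NASH-CH rat 5 it was 1.46, with limma-voom adjusted p = 0.00164. In NASH the log2 fold change was 0.66 (limma-voom adjusted p = 0.449). Between NASH-CH and NASH it was 1.09 (interval 0.36 to 1.82, limma-voom adjusted p = 0.0887), and 0.79 without NASH-CH rat 5 (limma-voom adjusted p = 0.0687). With all rats, edgeR and DESeq2 each gave 1.23 against NASH (adjusted p = 0.0414 and 0.0095).

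Plod1 (ENSRNOG00000007763), which acts on lysines within the helix, measured 18.8, 21.5 and 29.8 CPM in control, 23.4, 25.3 and 32.8 in NASH and 23.2, 25.2 and 31.4 in NASH-CH rats. The groups overlapped throughout. Its log2 fold change in NASH-CH against control was 0.18, with a 95% interval of -0.09 to 0.44 and limma-voom adjusted p = 0.348.

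The count ratio of Plod2 to Plod1 sets both enzymes against each other within a rat, so library scaling cancels. It was 0.0197, 0.0458 and 0.119 in control rats, 0.0569, 0.0671 and 0.0970 in NASH and 0.105, 0.126 and 0.375 in NASH-CH. All 6 NASH-CH ratios exceeded all 6 NASH ratios, and control overlapped both. In NASH against control the mean log2 ratio was higher by 0.50, which did not pass (exact permutation p = 0.242, adjusted 0.386). The mean log2 ratio was higher by 1.58 in NASH-CH than in control (2.99-fold, two-sided exact permutation p = 0.00866, adjusted over 9 ratio comparisons 0.0390) and by 1.08 than in NASH (2.11-fold, exact permutation p = 0.00216, the smallest that 6 against 6 rats can give, adjusted 0.0195). The control contrast lost its call when any 1 of the 6 NASH-CH rats was left out (without rat 5, 1.32, exact permutation adjusted p = 0.0649, and 0.81 against NASH, adjusted 0.0390), and both contrasts lost it when medians were compared (exact permutation adjusted p = 0.0877 for each).

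**Figure D2:**
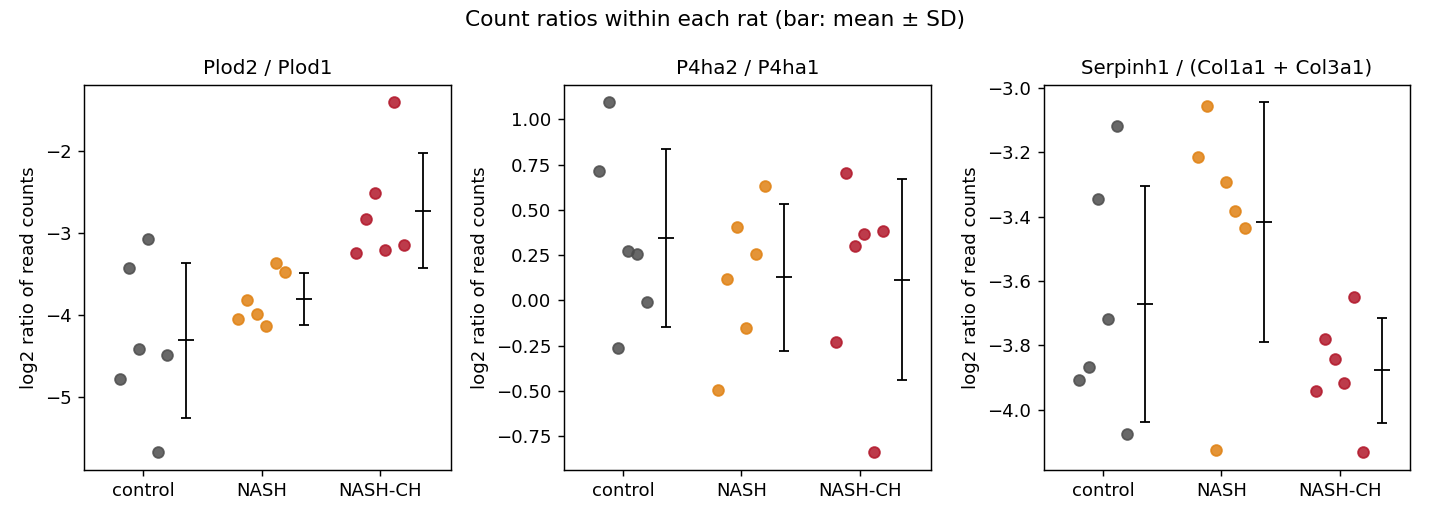
Log2 ratio of read counts within each rat for Plod2 to Plod1, P4ha2 to P4ha1, and Serpinh1 to the sum of Col1a1 and Col3a1, with 1 point per rat and a bar for the mean ± SD of 6 rats. The Plod2 to Plod1 ratio averages -4.31 for control rats, -3.80 for NASH rats and -2.73 for NASH-CH rats, while the P4ha2 to P4ha1 ratio overlaps across groups.

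Pcolce (ENSRNOG00000025001), which raises the rate at which procollagen loses its C-terminal propeptide, measured 3.66, 4.70 and 5.05 CPM in control, 3.27, 4.09 and 7.89 in NASH and 4.55, 7.30 and 8.18 in NASH-CH. In NASH-CH, 5 of 6 rats lay above every control, and rat 6 lay among the controls. Against control, its log2 fold change was 0.60 (SE 0.18, 95% interval 0.21 to 0.99, limma-voom adjusted p = 0.0329), and 0.58 against NASH (limma-voom adjusted p = 0.0788). The call was near the threshold: it was lost in 8 of 18 fits that left out 1 rat (control 1, 3, 4, 5 or 6, or NASH-CH 2, 3 or 5), with log2 fold changes of 0.54 to 0.72 over all 18 and an adjusted p of 0.0569 without NASH-CH rat 5 (limma-voom).

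No lysyl oxidase passed the threshold, and their fitted changes had both signs. Lox (ENSRNOG00000014426), the founding enzyme of the family, measured 0.501, 0.845 and 1.26 CPM in control, 0.446, 0.833 and 1.16 in NASH and 0.568, 2.21 and 7.57 in NASH-CH. These rest on few counts, 10 to 30 in each control or NASH rat and 26 to 583 in NASH-CH. In NASH-CH, 5 of 6 rats were above every control and rat 4 was among them. Fitted against control, Lox had a log2 fold change of 1.42 (SE 0.62, 95% interval 0.12 to 2.73, limma-voom adjusted p = 0.124), and 0.98 without NASH-CH rat 5 (limma-voom adjusted p = 0.130). With all rats, edgeR gave 1.69 (adjusted p = 0.0160) and DESeq2 1.69 (adjusted p = 0.00233). Against NASH the log2 fold change of Lox was 1.56 (limma-voom adjusted p = 0.183), and 1.11 without NASH-CH rat 5 (limma-voom adjusted p = 0.185). That contrast with all rats was 1.84 by edgeR (adjusted p = 0.0238) and 1.845 by DESeq2 (adjusted p = 0.00172).

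Loxl1 (ENSRNOG00000008680), known for its part in elastic fibres, measured 0.858, 1.12 and 1.81 CPM in control, 1.203, 1.55 and 2.31 in NASH and 1.22, 3.05 and 6.92 in NASH-CH. Its NASH-CH rats 1 and 4 sat within the control range and the other 4 above it. Loxl1 had a log2 fold change against control of 1.26 (SE 0.45, limma-voom adjusted p = 0.0629), and 0.94 without NASH-CH rat 5 (limma-voom adjusted p = 0.0604). It passed the threshold in 7 of 10 alternative fits, edgeR among them (1.40, adjusted p = 0.0105).

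Loxl2 (ENSRNOG00000016758), a crosslinking oxidase of fibrotic matrix, measured 6.05, 6.74 and 8.43 CPM in control, 4.41, 5.49 and 5.87 in NASH and 5.11, 6.14 and 7.27 in NASH-CH. All 6 NASH rats were below all 6 control rats, a pattern that 1.39% of the 12904 genes showed. The log2 fold change in NASH was -0.37 (95% interval -0.61 to -0.14, limma-voom adjusted p = 0.0714), with adjusted p = 0.0492 by edgeR, 0.0252 by DESeq2 and 0.0475 by limma-voom without NASH-CH rat 5. In NASH-CH it was -0.19 (limma-voom adjusted p = 0.217), and it changed sign, to 0.06, when only library size was scaled.

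Loxl4 (ENSRNOG00000015727), another family member, measured 15.5, 24.6 and 35.9 CPM in control, 11.3, 16.9 and 37.1 in NASH and 8.25, 16.1 and 25.7 in NASH-CH. The groups overlapped, with 3 NASH-CH rats below every control. Its log2 fold change in NASH-CH was -0.61 (95% interval -1.21 to -0.0021, limma-voom adjusted p = 0.157), and -0.43 without NASH-CH rat 5.

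Both prolyl 4-hydroxylase subunits had their highest group median in NASH, without passing the threshold. P4ha1 (ENSRNOG00000050655), a catalytic alpha subunit, measured 8.56, 11.96 and 14.5 CPM in control, 12.2, 16.3 and 22.6 in NASH and 10.4, 14.6 and 22.3 in NASH-CH. In NASH 4 of 6 rats were above every control. P4ha1 had a log2 fold change of 0.52 in NASH (95% interval 0.12 to 0.91, limma-voom adjusted p = 0.126) and 0.34 in NASH-CH (limma-voom adjusted p = 0.228), the latter 0.22 without NASH-CH rat 5.

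P4ha2 (ENSRNOG00000033663), the second catalytic subunit, measured 12.1, 14.4 and 18.4 CPM in control, 16.045, 18.5 and 19.3 in NASH and 12.5, 16.6 and 19.8 in NASH-CH. The NASH rats were tightly grouped, with a coefficient of variation of 6.42% against 18.8% in control. P4ha2 had a log2 fold change of 0.31 in NASH (limma-voom adjusted p = 0.175) and 0.11 in NASH-CH (limma-voom adjusted p = 0.591). The P4ha2 to P4ha1 ratio did not pass in any of the 3 comparisons, with exact permutation adjusted p = 0.536 or higher.

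Serpinh1 (ENSRNOG00000016831), the collagen chaperone, measured 14.8, 18.7 and 26.9 CPM in control, 13.1, 19.5 and 23.8 in NASH and 14.8, 19.4 and 28.1 in NASH-CH. The 3 ranges nearly coincided. Serpinh1 had a log2 fold change of 0.06 in NASH-CH, with a 95% interval of -0.32 to 0.45 (limma-voom adjusted p = 0.844), and -0.03 without NASH-CH rat 5. Against the sum of its substrates Col1a1 and Col3a1, the log2 ratio of Serpinh1 averaged -3.42 ± 0.37 (SD, 6 rats) in NASH and -3.88 ± 0.16 in NASH-CH, a difference of -0.46 that did not pass (exact permutation p = 0.0216, adjusted 0.0649). NASH rat 3 lay far below the other NASH rats, and without it the difference was -0.60 (exact permutation adjusted p = 0.0195).

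**Figure D3:**
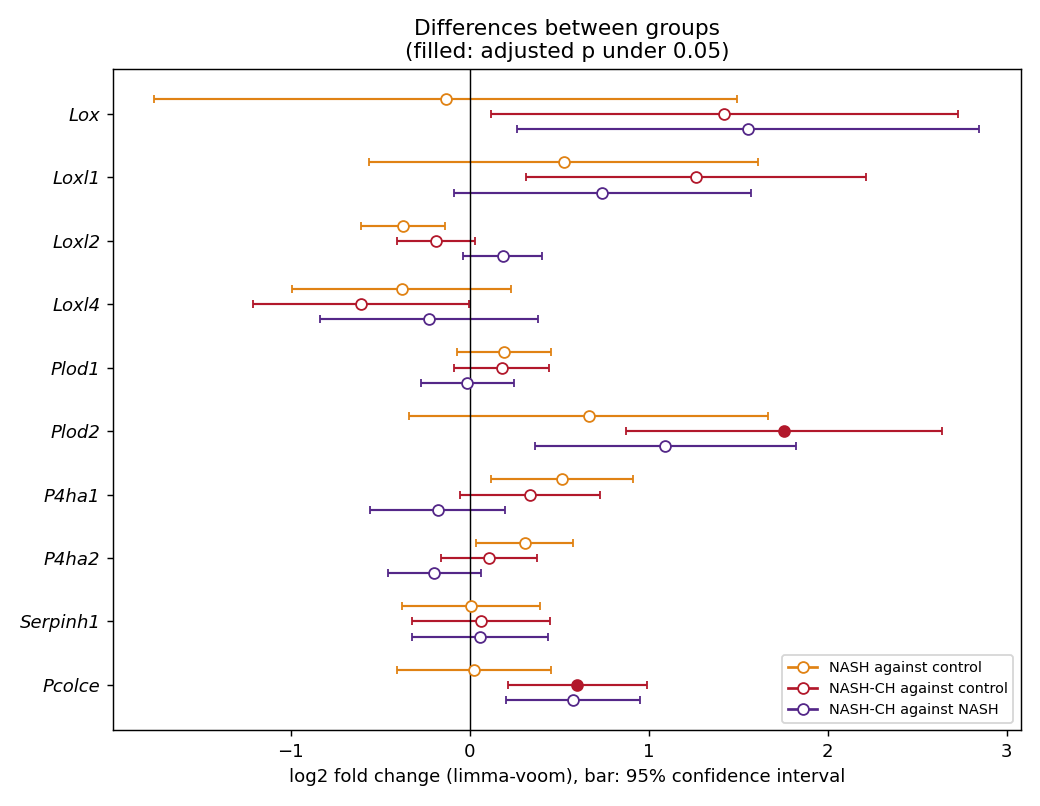
Log2 fold change (limma-voom, horizontal axis) of each gene in the 3 comparisons, with 95% confidence intervals, filled where the adjusted p is under 0.05. Plod2 (1.76) and Pcolce (0.60) in NASH-CH against control are the 2 filled points, and Lox has the widest intervals.

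Counted over the 10 genes, 2 passed in NASH-CH against control, both higher. In that comparison 17.0% of all tested genes passed, and 8.38% of all tested genes were called higher. A share of 2 in 10 is near the 17.0%. By edgeR and by DESeq2 4 of 10 passed, where 19.0% and 22.0% of all genes did. In NASH against control 0 of 10 passed by limma-voom (3 at an unadjusted p under 0.05), with a background of 3.12%, and 1 of 10 by edgeR and by DESeq2, with backgrounds of 5.05% and 9.52%. In NASH-CH against NASH 0 of 10 passed by limma-voom (3 unadjusted), with a background of 4.20%. Both edgeR and DESeq2 called 2 of 10, Lox and Plod2, with backgrounds of 4.78% and 7.35%. The separation of Plod2 from NASH was shared by 1.36% of all genes. No member separated fully in NASH-CH against control, where 3.64% of genes had every rat above and 3.46% every rat below. The median log2 fold change of the 10 genes was 0.11, 0.26 and 0.12 in NASH, NASH-CH and NASH-CH against NASH, beside 0.01 for all genes in each.

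**Figure D4:**
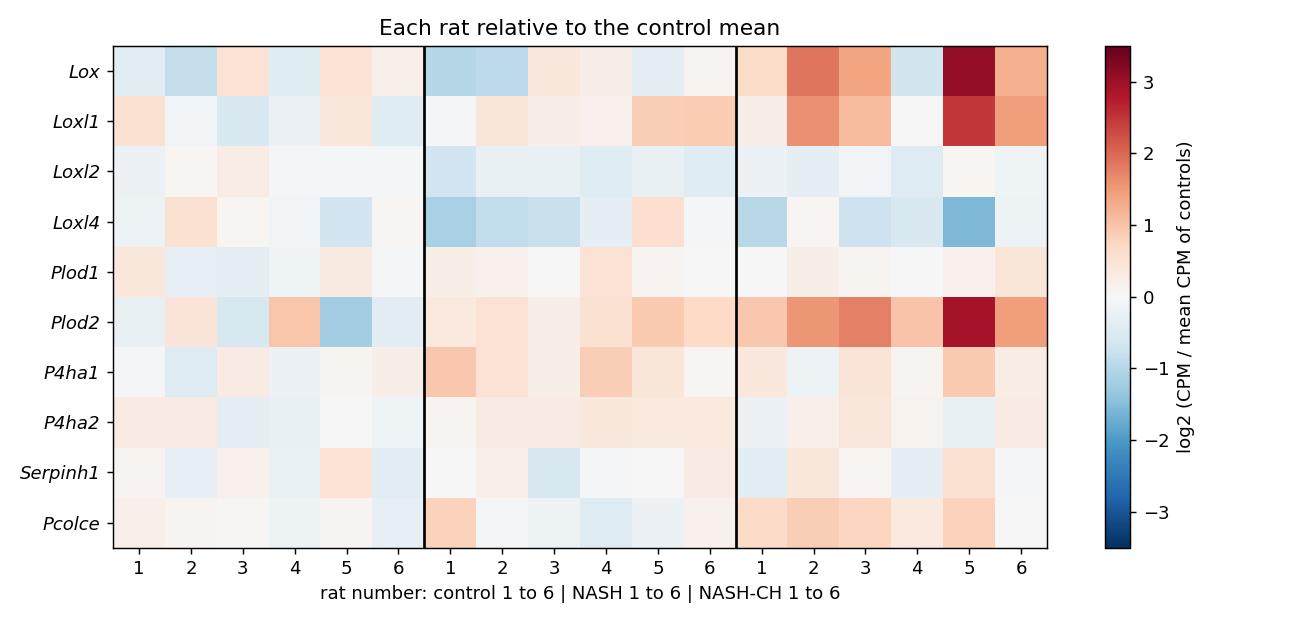
Level of each gene in each rat as the log2 of its CPM over the control mean (colour scale, -3.5 to 3.5), with rats of a group side by side. NASH-CH rat 5 is the darkest column for Lox, Loxl1 and Plod2, and NASH-CH rat 4 alone of its group lies below the control mean for Lox and Loxl1.

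Spread between rats was larger in NASH-CH than in control for 8 of the 10 genes by coefficient of variation, reaching 86.4% for Lox against 36.1% in control. NASH-CH rat 4 was lowest of its group in 3 genes (Lox, Loxl1 and Loxl2), and so was rat 1 in another 3 (Plod1, Plod2 and Serpinh1). Markers of collagen-making cells moved in the same group. The 6 myofibroblast markers summed to 30.3 to 40.2 CPM in control, 31.2 to 37.8 in NASH and 39.2 to 80.2 in NASH-CH. Of the 6, Tagln and Pdgfra were called higher in NASH-CH against control, where 8.38% of all tested genes were. The summed cholangiocyte markers ranged from 8.43 to 10.5 CPM in control and 6.53 to 51.5 in NASH-CH, with rat 5 highest, while the 6 hepatic stellate cell markers ranged from 169 to 219 and from 137 to 211 CPM. Some markers of hepatocytes and macrophages were lower in NASH-CH against control, where 8.60% of all tested genes were called lower. Of 6 hepatocyte markers 3 were called lower in NASH-CH against control, among them Alb, the albumin gene (0.65-fold, limma-voom adjusted p = 0.0304, 5 of 6 rats below every control). The 6 hepatocyte markers summed to 101390 to 145170 CPM in control, 65867 to 107420 in NASH and 49172 to 103550 in NASH-CH. NASH-CH rat 5 was the lowest. Among them, Tat and Cps1 had positive log2 fold changes (0.41 and 0.15) without a call. Of 6 macrophage markers 4 were called lower, while Cd68 had a positive log2 fold change (0.15) without a call. The 6 macrophage markers summed to 198 to 375 CPM in control, 155 to 229 in NASH and 132 to 197 in NASH-CH. In control, rat 5 held the 375 and the next highest was 242. In NASH, 1 of the 6 hepatocyte markers, Apoa1, was already called lower (log2 fold change -0.82, limma-voom adjusted p = 0.0110). So was 1 of the 6 macrophage markers, Marco (-2.78, limma-voom adjusted p = 0.0168), where 3.12% of all tested genes were called. No marker of either list was called in NASH-CH against NASH, where 4.20% of all tested genes were. No tested marker of cholangiocytes, portal fibroblasts, smooth muscle, sinusoidal endothelium, neutrophils or lymphocytes was called in NASH-CH against control. For neutrophils only 1 of 3 markers was tested. The part of these markers in the member results was not tested.

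Other genes of collagen handling and of the hypoxia response were taken from lists chosen with earlier results of these data known. Of 56 such genes, 52 were in the tables and 48 entries were tested. In NASH-CH against control 12 passed, 9 higher and 3 lower, beside backgrounds of 8.38% and 8.60%. The hypoxia list, 12 of the 56 genes, held 1 of the higher and 2 of the lower calls. Leaving out control 1, 3, 4 or 5 or NASH-CH rat 2 reduced the 12 to between 5 and 7, and fitting the 2 groups alone gave 4. Without NASH-CH rat 5, 8 passed. In NASH 0 passed by limma-voom (12 at an unadjusted p under 0.05), 2 by edgeR and 5 by DESeq2, beside the backgrounds of 3.12%, 5.05% and 9.52%. Of the 12, Col1a1, Adamts2, Pxdn and Ndrg1 kept their calls in all 10 alternative fits and with each of the 18 rats left out. The other 8 lost theirs when the 2 groups were fitted alone and in the fits named beside them.

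Among the substrates, Col1a1, the main chain of type I collagen, measured 6.45, 8.76 and 10.4 CPM in control, 5.57, 7.85 and 12.3 in NASH and 9.54, 17.2 and 34.4 in NASH-CH. The log2 fold change was 1.02 against control (limma-voom adjusted p = 0.0186) and 1.01 against NASH (limma-voom adjusted p = 0.0451). Against control it was 0.83 without NASH-CH rat 5 (limma-voom adjusted p = 0.0269). Col5a2, of the type V collagen that starts fibrils, was higher by 0.49 and 0.55 (limma-voom adjusted p = 0.0340 and 0.0452). The first of these calls was lost in 8 of 18 fits, without control 1 to 5 or NASH-CH 1, 2 or 5 (0.42 without rat 5, limma-voom adjusted p = 0.0618). Col3a1, named after its values were seen, was called against NASH, at 0.49 (limma-voom adjusted p = 0.0457), and at 0.22 against control (limma-voom adjusted p = 0.283). These 3 made up the calls in NASH-CH against NASH, where 1.81% of all genes were called higher. They fell to 0 or 1 in 15 of the 18 fits that left out 1 rat, and without NASH-CH rat 5 the differences from NASH were 0.81 for Col1a1 and 0.47 for Col5a2 (limma-voom adjusted p = 0.0672 and 0.0879).

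Among enzymes and chaperones, Fkbp10, a chaperone that works with Plod2, rose by 0.66 on the log2 scale (limma-voom adjusted p = 0.0400), from 0.992 to 1.40 CPM in control to 1.51 to 2.87 in NASH-CH. P3h3, a relative of the prolyl 3-hydroxylases, rose by 0.38 (limma-voom adjusted p = 0.0397). All 6 NASH-CH rats were above all 6 controls for both, a pattern of 2 of the 48 entries and of 3.64% of all tested genes. Neither call was stable. Fkbp10 lost its call in 9 of 18 fits, without any 1 control rat or NASH-CH 2, 3 or 5 (0.53 without rat 5, limma-voom adjusted p = 0.0591). P3h3 lost its call in 10 of 18, without any 1 control rat or NASH-CH 2, 3, 5 or 6 (0.31 without rat 5, limma-voom adjusted p = 0.0676), and also with quality weights (0.0675) and thinned NASH-CH counts (0.0850). Adamts2, which removes the N-terminal propeptide, rose by 1.08 (limma-voom adjusted p = 0.0163), Efemp2, a fibulin that helps activate Lox, by 0.89 (0.0214), Mia3, which loads collagen for export, by 0.50 (0.0252), and Pxdn, which crosslinks type IV collagen, by 0.44 (0.0175). Efemp2 lost its call without control 3 or 4 (0.77 and 0.87), and Mia3 without control 1, 3, 4 or 5 or NASH-CH 2 or 4 (0.43 to 0.48). Without NASH-CH rat 5, Adamts2 was at 0.91 and Efemp2 at 0.69 (limma-voom adjusted p = 0.0228 and 0.0126).

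The hypoxia list did not move one way, with positive log2 fold changes for 6 of the 11 tested genes in NASH-CH against control. Egln3, named after its values were seen, had the largest, 1.40, without a call (limma-voom adjusted p = 0.109). Ndrg1 rose by 0.90 (limma-voom adjusted p = 0.0170), while Ldha and Pdk1, genes of glucose metabolism, fell by 0.67 and 0.64 on the log2 scale (0.0234 and 0.0376), and the other 8 of the 11 tested did not pass. Ldha lost its call without control 1 or NASH-CH 6 (-0.62 and -0.59), and Pdk1 without control 1, 3, 4 or 5 or NASH-CH 5 or 6 (-0.67 to -0.47, with limma-voom adjusted p = 0.0634 without rat 5). Scaled by library size alone, they were at -0.41 and -0.40 (limma-voom adjusted p = 0.0514 and 0.0735).

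Hspa5, a chaperone of the endoplasmic reticulum, fell by 0.48 (limma-voom adjusted p = 0.0461). This call was lost in 11 of 18 fits, without control 1, 3, 4 or 5, NASH 1, 5 or 6, or NASH-CH 2, 3, 4 or 6 (-0.53 to -0.40), and with library size alone it was -0.22 (limma-voom adjusted p = 0.307).

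With the 10 members set aside, 4 lists held no call, and each was represented by its remaining gene with the strongest statistic. These were Loxl3, the 1 gene left in the LOX family (log2 fold change 0.08), Colgalt1, a collagen galactosyltransferase (-0.19), P4hb, the beta subunit and 1 tested gene left of prolyl 4-hydroxylase (-0.22), and Slc23a2, an ascorbate transporter (0.32), with limma-voom adjusted p from 0.126 to 0.830. Scaling by library size alone turned Colgalt1 to 0.07 and P4hb to 0.04.

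**Figure D5:**
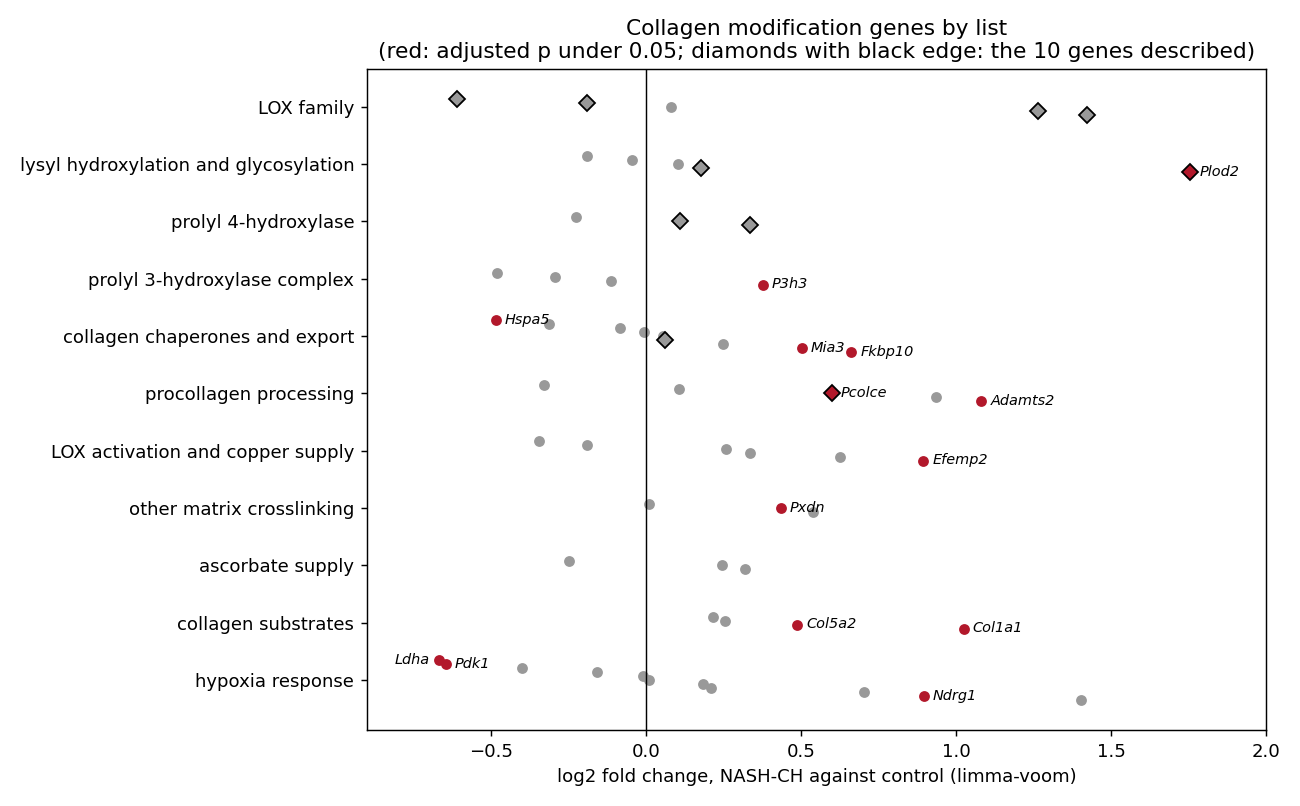
Log2 fold change in NASH-CH against control (limma-voom, horizontal axis) of every tested gene of each list (rows), red where the adjusted p is under 0.05 and named, with diamonds for the 10 genes described. Plod2 is the rightmost point at 1.76, and the hypoxia list holds red points on both sides of 0.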

How the data were processed

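Liver RNA of 18 rats was sequenced from TruSeq stranded mRNA libraries, 1 per rat. The extraction kit is named differently in the labels and the methods. The authors trimmed adapters, aligned reads to Rnor_6.0 with STAR 2-pass and deposited RSEM expected counts per gene (Ensembl release 95), not normalized for depth or length. The submitters' notes also name FastQC, Trim Galore and limma. Their versions are not given in the sources used here. Expected counts were rounded, filtered with filterByExpr, TMM-scaled (edgeR 4.0.16) and fitted with limma-voom (limma 3.58.1, R 4.3.3), with 1 mean per group over all 18 rats. Groups came from the labels. Ratios were tested with two-sided exact permutation tests (0.5 added to each count). DESeq2 1.42.0 and edgeR's quasi-likelihood test were alternatives, and the fits were tested on simulated data. Replicate numbers were shared by the groups, but deviations of same-numbered rats correlated at 0.05, 0.07 and 0.02 on average over the 3 comparisons, so they were not treated as pairs. The members and gene lists were chosen with earlier results of these data known. Named genes were all 10 members, every other listed pathway gene called against control and, where a list's non-members held none, the non-member with the largest statistic. Crtap, Pcolce2, Col1a2, Ca9 and Pecam1 were not analysed here, so the collagen sum is Col1a1 and Col3a1.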

Additional observations from a re-analysis of the deposited data

Results flagged for a closer look

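Some rats lay far from the rest of their group by Dixon's criterion (gap to the nearest rat over the group's range). Of 69 groups checked, 10 held such a rat. The criterion flags about 1 in 20 groups that are independent and normally distributed. These checks shared rats, so the 10 cannot be set against that rate. Among the genes described, these were Plod2 in NASH-CH (9.68 CPM in rat 5), P4ha2 in NASH (16.045 CPM in rat 1) and Pcolce in NASH (7.89 CPM in rat 1). The log2 ratio of Serpinh1 to collagen stood apart in NASH at -4.13 in rat 3.

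Among summed markers, NASH-CH rat 5 stood apart in cholangiocyte (51.5 CPM), sinusoidal endothelium (161 CPM, its group's lowest), neutrophil (4.75 CPM) and lymphocyte (2.57 CPM) markers. Cholangiocyte markers were at 12.2 CPM in NASH rat 2, and macrophage markers at 375 CPM in control rat 5.

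In 4 results the signed log2 difference from control was higher in NASH-CH than in NASH, by the test of NASH-CH against NASH itself. The gap was 1.08 for the Plod2 to Plod1 ratio, 1.01 for Col1a1 and 0.55 for Col5a2. It was 0.49 for Col3a1, whose differences from control were -0.28 in NASH and 0.22 in NASH-CH, neither past the threshold.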

How the results depend on the processing

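Over 26 named genes, 3 comparisons and 10 alternatives, 713 of 780 values kept their direction and side of the threshold, 34 newly passed, 19 no longer passed and 14 reversed. Plod2 in NASH-CH against control kept its call in every alternative fit and with each rat left out (1.46 to 1.98).

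Counts of called members in NASH, 0 in the report, were 1 by edgeR, DESeq2, library size alone, sample quality weights and thinned NASH-CH counts. In NASH-CH against control they were 4 by edgeR and DESeq2, 5 by library size alone and 1 at an adjusted p under 0.01. In NASH-CH against NASH they were 2 by edgeR, DESeq2 and without a filter, and 1 with quality weights. Leaving out 1 rat gave 0 to 1, 1 to 4 and 0 to 1.

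The share of all genes called moved with these settings. For NASH it was 5.05% by edgeR, 9.52% by DESeq2, 6.70% by library size alone, 4.10% with at least 10 counts, 11.7% with quality weights and 3.80% with thinned counts, against 3.12%. For NASH-CH against control it was 19.0%, 22.0% and 25.3% by the first 3 of these, 10.9% with 2 groups alone and 6.58% at an adjusted p under 0.01, against 17.0%. For NASH-CH against NASH it was 4.78%, 7.35% and 2.84%, then 12.7% without a filter, 6.00% with quality weights, 2.67% with 2 groups alone and 1.85% at an adjusted p under 0.01, against 4.20%.

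Counts of called pathway genes in NASH, 0 in the report, were 2 by edgeR and by library size alone, 5 by DESeq2, 1 with at least 10 counts in every sample, 6 with quality weights and 1 with thinned counts. In NASH-CH against control, 12 became 4 with 2 groups fitted alone and 0 at an adjusted p under 0.01. In NASH-CH against NASH, 3 became 6 by DESeq2, 7 without a filter, and 0 by library size alone, with 2 groups alone or at an adjusted p under 0.01. Leaving out 1 rat gave 0 to 6, 5 to 13 and 0 to 3.

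The Plod2 to Plod1 ratio differences by medians were 1.46 against control and 0.91 against NASH (exact permutation adjusted p = 0.0877), and leaving out 1 rat gave 1.31 to 1.82 and 0.81 to 1.18. The P4ha2 to P4ha1 ratio reversed by medians to 0.0679 against control and 0.15 against NASH, and leaving out 1 rat gave -0.14 to 0.18 against NASH. The Serpinh1 ratio against NASH ranged from -0.60 to -0.39.

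With the replicate block, the Plod2 to Plod1 differences of 1.58 and 1.08 lost their calls (exact sign-flip adjusted p = 0.281 for each). This loss says little about the ratio. With 6 pairs no p falls below 0.0313, so adjustment over 9 comparisons lets none pass unless most sit at that floor. Loxl1 in NASH-CH against control gained a call with the block (1.37, limma-voom adjusted p = 0.00887). Calls over all genes went from 403, 2192 and 542 to 444, 2095 and 540.

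Library size alone shifted the all-gene median log2 fold change against control to 0.23 (NASH) and 0.27 (NASH-CH). It reversed, without a call, Col5a2 (0.17) and Lox (0.0530) in NASH, Loxl2 (0.0649), Colgalt1 (0.0736) and P4hb (0.0412) in NASH-CH, and Plod1 (0.0241) and Slc23a2 (0.00166) against NASH. Serpinh1 in NASH became -0.00744 by edgeR and -0.01 by DESeq2, and with quality weights -0.00783 in NASH-CH and -0.0203 against NASH. Pdk1 against NASH became 0.00240 by edgeR and 0.13 with quality weights, and Loxl3 in NASH-CH became -0.0203 with thinned counts. Leaving out 1 rat also reversed uncalled values. In NASH these were Col5a2 (-0.12 to 0.00869), Col1a1 (-0.10 to 0.12), Serpinh1 (-0.0680 to 0.12) and Pcolce (-0.12 to 0.12). In NASH-CH they were Serpinh1 (-0.0347 to 0.16) and Loxl3 (-0.0372 to 0.19). Against NASH they were Pdk1 (-0.12 to 0.13), Plod1 (-0.074 to 0.0479), Serpinh1 (-0.0537 to 0.14), Slc23a2 (-0.10 to 0.0617) and Colgalt1 (-0.0048 to 0.0747). The cause was not tested. The few counts of Lox, Loxl1 and Plod2 limit their precision.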

Other observations

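Deviations from the group means over the 18 rats described which genes varied with a member from rat to rat, as a description without a test, in rats that share groups and scaling. Serpinh1 was most like Srpx2 (r = 0.867), Tagln (0.864), a smooth muscle and myofibroblast gene, and Tor2a (0.857). Lox was most like Timp2 (0.923), a metalloproteinase inhibitor, Aspnl1 (0.887) and Atp10a (0.885), and P4ha1 was most like Ptbp2 (0.819), Slf2 (0.803) and Banp (0.798). Between the 10 members themselves the 45 pairs had a median r of 0.138, from -0.605 for Loxl4 with P4ha1 to 0.727 for Loxl1 with Serpinh1, and a median of 0.0557 without NASH-CH rat 5.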
